A study of Homo sapiens with 12 samples.

Results

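The genes described here are 10 transcripts through which signalling by the ERK MAP kinases limits itself or is read out: DUSP1, DUSP4, DUSP5, DUSP6, SPRY2, SPRY4, SPRED1, SPRED2, ETV4 and ETV5. They were taken as a fixed list of gene symbols. All 10 were found among the 27968 genes of each deposited table, and all 10 passed the filter on low counts that left 15304 genes. RNA was sequenced from the lung cancer line A549 and from the breast cancer line MDA-MB-231. Both were grown in DMEM with 10% FBS either as flat 2D culture, harvested at about 80% confluence, or as 3D culture in Matrigel, a basement membrane extract, harvested on day 4. There were 4 groups (A549 2D, A549 3D, MDA-MB-231 2D and MDA-MB-231 3D) of 3 libraries each, 12 libraries in all, with no other treatment and no change to the genome named in the labels. The series asked which genes the extracellular matrix regulates in cancer cells. Culture format, confluence at harvest and time in culture differ together between 2D and 3D, so their parts cannot be told apart, and each line stands for 1 lung or 1 breast tumour.

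Growth factor receptors pass their signal through RAS, RAF and MEK to ERK, and active ERK raises transcripts of its own inhibitors. Dual-specificity phosphatases (DUSP) remove phosphate from MAP kinases, Sprouty (SPRY) and SPRED proteins act upstream on receptor and RAS signalling, and the ETS factors ETV4 and ETV5 are nuclear targets of the pathway. Because these transcripts follow ERK output, they are widely used as readouts of the pathway in tumours with mutant RAS or RAF.

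The shallowest library held 5609327 expected counts and the deepest 28171901, both in A549 3D. Nothing in the labels says that replicate libraries come from different cultures. The p-values therefore describe the spread among these samples alone, and that spread may be technical. A549 3D libraries varied most among themselves, with a biological coefficient of variation of 0.179 against 0.0368 to 0.0555 in the other groups. The 4 groups shared an estimate of spread in the fit, so p-values within MDA-MB-231 also carry the spread of A549 3D. Library content moved with culture: mean fragment length was 176 to 187 bases in A549 2D and 134 to 141 in A549 3D, and 208 to 217 and 181 to 188 in MDA-MB-231. Ribosomal RNA genes took 0.311% to 0.483% of counts in A549 2D and 3.53% to 16.5% in A549 3D, against 1.12% to 1.18% and 4.01% to 6.50% in MDA-MB-231. With small RNA and ribosomal RNA genes removed before scaling, 7 feedback genes passed in A549 and 7 in MDA-MB-231. With a trend over gene length removed, 9 and 8 passed. Over all genes, 9992 and 10341 passed in A549 and MDA-MB-231 in the first setting, and 9864 and 10070 in the second. Whether RNA quality itself contributes was not tested. The summed level of 5 epithelial markers was 3744 to 3982 CPM in A549 2D and 10323 to 13509 in A549 3D, and 761 to 792 and 1436 to 1552 CPM in MDA-MB-231. All 5 rose in A549, whereas in MDA-MB-231 KRT8, KRT18 and KRT19 rose and EPCAM and CDH1 fell, by 1.39 and 2.79 on the log2 scale. The 3 mesenchymal markers VIM, CDH2 and ZEB1 summed to 1136 to 1156 CPM in A549 2D and 703 to 828 in A549 3D. They summed to 2745 to 2755 and 3566 to 3911 CPM in MDA-MB-231. In A549, VIM and CDH2 fell, by 0.54 and 1.21 on the log2 scale, and ZEB1 did not pass. In MDA-MB-231, VIM rose by 0.47, whereas CDH2 and ZEB1 fell, by 2.36 and 0.71. The 5 leukocyte markers summed to 2.02 to 2.14 CPM in A549 2D and 18.2 to 25.2 in A549 3D, and to 2.73 to 2.98 and 17.8 to 19.9 CPM in MDA-MB-231, with CD3E at 0 counts in every library. Most of that sum was CD14, at 2.07 and 20.4 CPM on average in A549 2D and 3D and 1.83 and 17.0 CPM in MDA-MB-231, while PTPRC, which all leukocytes express, was at 0.0184 and 0.0131 CPM in A549 and 0.523 and 0.0661 CPM in MDA-MB-231. The 4 fibroblast markers summed to 0.712 to 4.89 CPM over all groups, with DCN at 0, and the 4 endothelial markers to 0.0562 to 1.25 CPM in A549 and 11.9 to 17.6 CPM in MDA-MB-231. The 4 alveolar type 2 markers SFTPA1, SFTPB, SFTPC and NKX2-1 summed to at most 0.752 CPM in A549, so the lung line lacked the defining transcripts of that cell type. The 4 breast luminal receptor markers ESR1, PGR, ERBB2 and GATA3 summed to 45.1 to 52.2 CPM in MDA-MB-231 2D and 81.3 to 89.8 in 3D. Over all 12 libraries, ESR1 and PGR did not pass the filter on low counts. In MDA-MB-231, ERBB2 and GATA3 rose in 3D by 0.81 and 0.87 on the log2 scale. In bulk RNA, fewer cells of a type and less RNA per cell cannot be told apart.

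Promoter sequences of 4 feedback genes are shown because these genes moved in opposite directions in A549 3D: DUSP1 and SPRY2 fell, while DUSP6 and SPRY4 rose. The sequences are the 250 bases before the annotated start, read 5′ to 3′ on the gene's own strand, which is the minus strand in each case, from RefSeq on build GRCh38.p14. The deposited tables used another build and their values carry no position. Of the 10 genes, 6 matched the promoter table, with 9 starts. The regions are chr5:172771196-172771445 for DUSP1, chr13:80341127-80341376 for the first SPRY2 start, chr12:89352502-89352751 for DUSP6 and chr5:142324248-142324497 for SPRY4. Capitals mark 4 searched motifs on either strand. They are the full cAMP response element (CRE) TGACGTCA, its shorter form TGACG, the ETS core with a flank, CCGGAA, and the AP-1 site TGANTCA. The ETS core without that flank was not searched.
DUSP1: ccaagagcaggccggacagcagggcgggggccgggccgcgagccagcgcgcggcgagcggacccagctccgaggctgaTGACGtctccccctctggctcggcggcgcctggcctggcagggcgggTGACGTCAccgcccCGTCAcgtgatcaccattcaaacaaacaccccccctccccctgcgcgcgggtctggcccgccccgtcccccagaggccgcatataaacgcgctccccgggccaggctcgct
SPRY2: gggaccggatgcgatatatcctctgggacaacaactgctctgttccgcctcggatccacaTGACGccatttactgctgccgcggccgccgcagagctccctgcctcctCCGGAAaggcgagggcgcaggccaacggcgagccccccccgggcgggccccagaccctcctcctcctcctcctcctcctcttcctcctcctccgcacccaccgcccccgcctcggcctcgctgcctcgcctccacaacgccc
DUSP6: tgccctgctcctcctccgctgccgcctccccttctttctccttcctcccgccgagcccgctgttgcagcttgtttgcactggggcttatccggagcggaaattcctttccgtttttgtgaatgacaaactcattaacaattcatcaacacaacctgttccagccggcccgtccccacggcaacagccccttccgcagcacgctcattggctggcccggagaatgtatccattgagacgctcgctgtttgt
SPRY4: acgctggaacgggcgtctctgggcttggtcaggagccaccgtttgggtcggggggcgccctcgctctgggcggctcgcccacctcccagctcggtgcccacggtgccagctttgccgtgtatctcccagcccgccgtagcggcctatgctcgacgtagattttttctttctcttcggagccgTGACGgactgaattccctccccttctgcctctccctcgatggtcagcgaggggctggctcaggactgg
The DUSP1 promoter held 1 full CRE, which began 125 bases before the start, and 4 matches of the shorter form, of which those 125 and 122 bases before the start lie inside the full site. The full CRE was present in 1.65% of the 35116 promoters of the same length, and the shorter form in 21.2%. SPRY2 held 1 shorter CRE and 1 ETS core with flank, a motif found in 14.5% of promoters. SPRY4 held 1 shorter CRE 68 bases before the start. No searched motif was present in the window of DUSP6, nor in those of SPRED1 and SPRED2 or at the other SPRY2 starts. The AP-1 site, found in 6.57% of promoters, was in none of the 9 windows. These matches describe letters only, and no binding was measured.

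In A549, Matrigel culture divided the feedback genes. DUSP1 and SPRY2 fell, DUSP6, SPRY4, SPRED2, ETV4 and ETV5 rose (ETV5 not on the deposited TPM scale, where it was at −0.01), and DUSP4, DUSP5 and SPRED1 did not pass the test. The largest fall was that of DUSP1, 9.03-fold, and the largest rise that of ETV4, 4.97-fold. Levels are given as TMM-normalised CPM, the counts scaled to library size, tests are edgeR's quasi-likelihood test with Benjamini-Hochberg adjustment over 15304 genes and a threshold of 0.05, and a log2 fold change is 3D against 2D with its standard error (SE). In A549, 34.1% of all genes tested rose and 31.5% fell, so 5 and 2 of 10 feedback genes are read against that background. Of the 7 passing genes, 5 changed at least 2-fold, a share that was not computed over all genes. The median absolute log2 fold change was 1.00 for the 10 genes and 0.56 over all genes tested. The median signed log2 fold change was 0.37, against 0.03 over all genes.

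The deposited TPM values place the libraries on another scale, and this bears on the small changes. With limma on log2(TPM + 1), the median log2 fold change of all genes tested was −0.38 in A549 and −0.25 in MDA-MB-231, and 21.0% and 25.3% of called genes were higher in 3D, against 52.0% and 49.4% in edgeR. In A549, DUSP6, SPRY4 and ETV4 still rose and DUSP1 and SPRY2 still fell on the TPM scale, while DUSP4, DUSP5 and SPRED1 were called lower in 3D, with log2 differences of −0.47, −0.37 and −0.60 (adjusted p = 2.14e-04, 0.00589 and 0.00229 by limma).

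DUSP1, a nuclear phosphatase that acts on p38 and JNK as well as ERK and is an immediate early gene of stress and growth factor signalling, stood at 193, 202 and 199 CPM in the 3 A549 2D libraries. It stood at 21.2, 21.3 and 22.7 CPM in the 3D libraries. The groups were far apart, and the libraries of each group lay close together. The log2 fold change was −3.17 ± 0.08 (SE), with an adjusted p of 1.38e-13 by edgeR.

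DUSP6, a cytoplasmic phosphatase selective for ERK, moved the other way. Its level was 13.4, 13.3 and 13.9 CPM in A549 2D and 35.0, 51.0 and 40.2 CPM in A549 3D. Every 3D library was above every 2D library, and the 3D libraries spread more widely. The log2 fold change was 1.61 ± 0.11 (adjusted p = 5.58e-09 by edgeR), a 3.06-fold rise.

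DUSP4 and DUSP5, nuclear phosphatases of the same family, showed overlapping libraries in A549. DUSP4 was at 270.4, 249 and 259 CPM in 2D and at 252, 275 and 287 CPM in 3D, with a log2 fold change of 0.06 ± 0.07 (adjusted p = 0.459 by edgeR). DUSP5, which acts on ERK, was at 59.1, 54.7 and 52.7 CPM in 2D and 54.7, 65.0 and 69.2 CPM in 3D, with a log2 fold change of 0.19 ± 0.09 (adjusted p = 0.0912 by edgeR). The DUSP5 call depended on scaling and on 1 library: its adjusted p by edgeR was 0.0477 with RLE scaling and 0.0148 without A549 3D replicate 1.

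The Sprouty genes split. SPRY2, an inhibitor of receptor tyrosine kinase signalling, was at 23.3, 22.3 and 23.5 CPM in A549 2D and at 10.2, 11.3 and 7.89 CPM in 3D. All 3D libraries were below all 2D libraries, with a log2 fold change of −1.32 ± 0.12 (adjusted p = 9.36e-08 by edgeR), a 2.49-fold fall. SPRY4, its close relative, had the lowest level of the 10 genes in A549 2D, with 81, 94 and 92 counts there and 122, 49 and 347 in 3D. These counts correspond to 4.48, 4.997 and 5.17 CPM in 2D and 15.3, 9.57 and 13.7 CPM in 3D, so the groups did not overlap. SPRY4 rose by a log2 fold change of 1.44 ± 0.14 (adjusted p = 2.21e-07 by edgeR).

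The SPRED genes encode membrane proteins that bring the RAS inactivator neurofibromin to RAS. SPRED2 was at 12.6, 12.9 and 12.8 CPM in A549 2D and at 22.4, 17.0 and 21.0 CPM in 3D. The SPRED2 libraries did not overlap, and the log2 fold change was 0.68 ± 0.10 (adjusted p = 1.37e-05 by edgeR), but with limma on the deposited TPM scale it was 0.08 (adjusted p = 0.504). SPRED1 was at 58.1, 60.1 and 59.8 CPM in 2D and at 50.02, 78.1 and 40.8 CPM in 3D, so that 1 library of 3D was above and the others below all 2D libraries. Its log2 fold change was −0.12 ± 0.16 (adjusted p = 0.511 by edgeR). Without A549 3D replicate 2 it was −0.42 (adjusted p = 7.47e-04 by edgeR), and without replicate 3 it was 0.08.

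ETV4 and ETV5, members of the PEA3 group of ETS factors, both rose in A549. ETV4 was at 28.5, 22.9 and 28.2 CPM in 2D and at 138, 107 and 147 CPM in 3D, a log2 fold change of 2.31 ± 0.13 (adjusted p = 5.36e-10 by edgeR). ETV5 was at 50.1, 47.0 and 50.9 CPM in 2D and at 71.3, 67.2 and 76.9 CPM in 3D. No ETV4 or ETV5 library of one culture overlapped the other culture. The ETV5 change was smaller, with a log2 fold change of 0.55 ± 0.07 (adjusted p = 8.86e-06 by edgeR), and it was −0.01 on the deposited TPM scale.

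**Figure D1:**
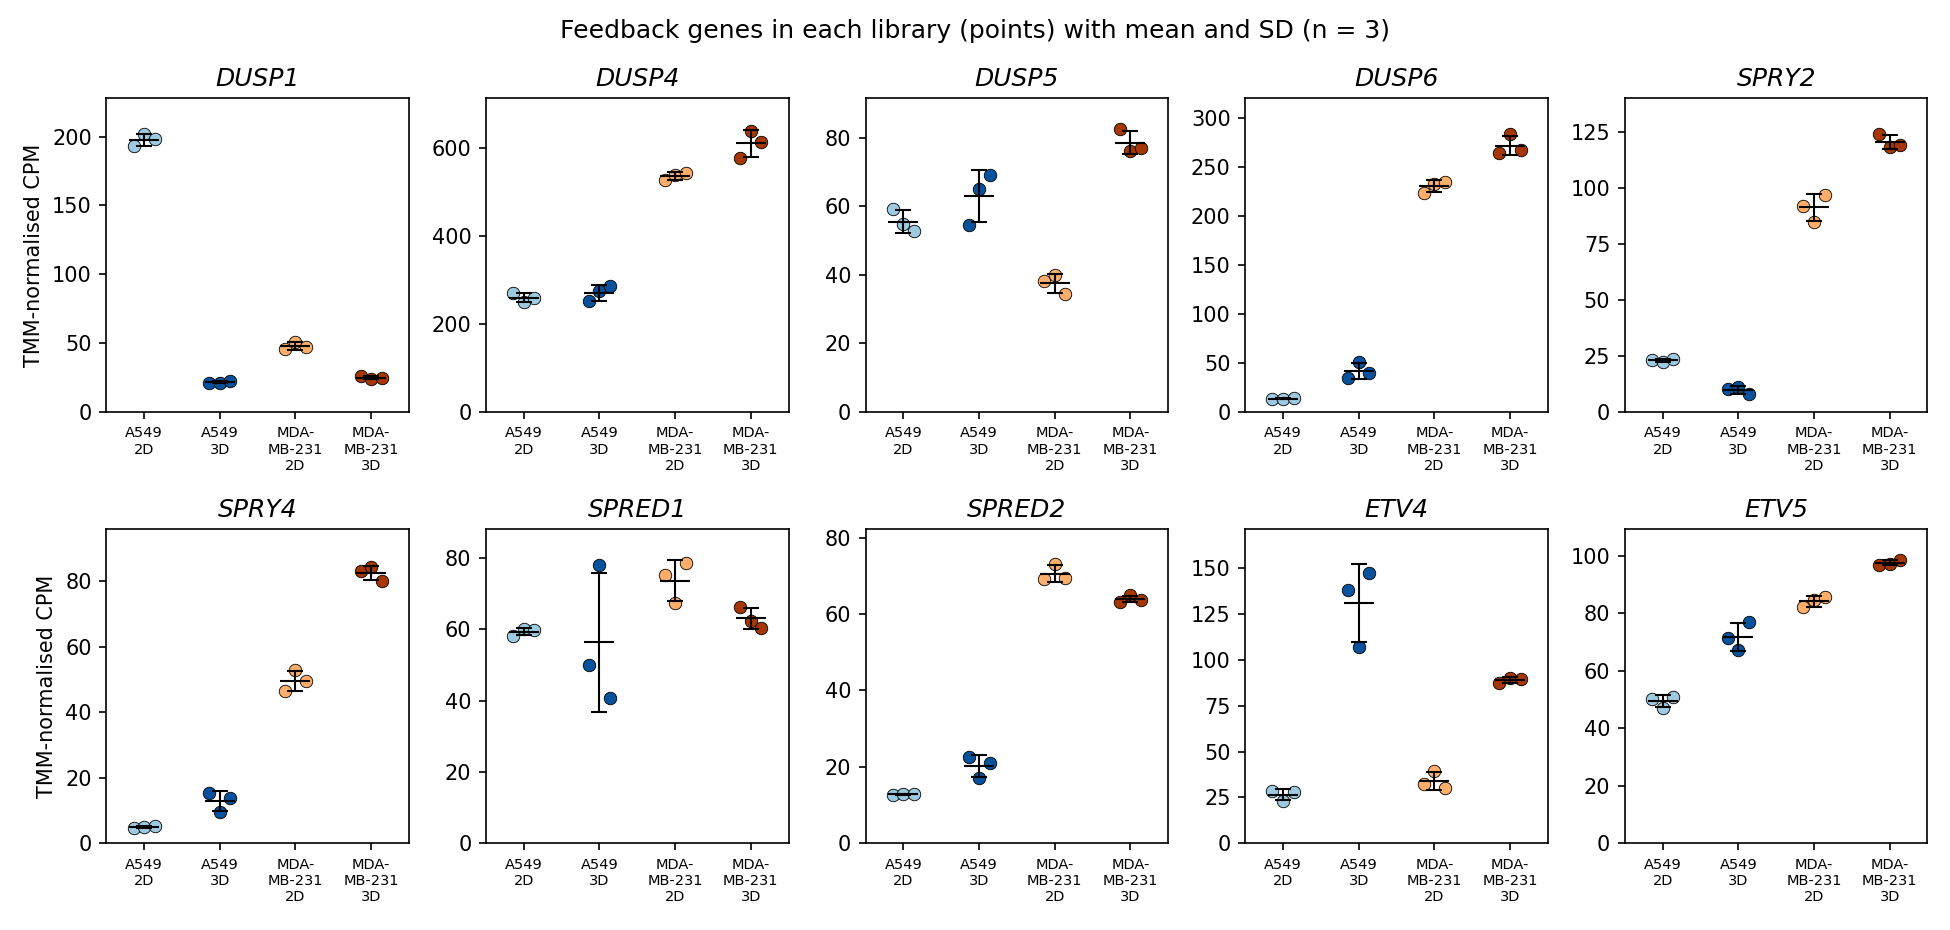
Level of each of the 10 feedback genes in TMM-normalised CPM (vertical axes, linear, each panel with its own scale from 0) in A549 and MDA-MB-231 in 2D and 3D. Points are libraries, bars are the mean and SD of 3 libraries. DUSP1 lies at 193 to 202 CPM in A549 2D and at 21.2 to 22.7 CPM in A549 3D, whereas ETV4 is higher in 3D in both lines.

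In MDA-MB-231, 7 of the 10 feedback genes rose in Matrigel, and most changes were small. ETV4 and DUSP5 rose more than 2-fold, SPRY4 rose 1.66-fold, and DUSP1 fell. DUSP4, DUSP6, SPRY2 and ETV5 rose by 1.32-fold or less, and on the deposited TPM scale their log2 differences were −0.22, −0.18, −0.02 and −0.20. SPRED1 and SPRED2 did not pass. Over all genes tested 33.4% rose and 34.2% fell, and the median absolute log2 fold change was 0.32 for the feedback genes and 0.61 over all genes. The median signed log2 fold change was 0.23, against 0 over all genes. Without MDA-MB-231 2D replicate 1, 4 feedback genes rose and 1 fell, and 9659 of all genes passed, 49.3% of them higher.

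DUSP1 was at 45.5, 51.0 and 47.0 CPM in MDA-MB-231 2D and at 26.2, 24.1 and 24.5 CPM in 3D. The groups did not overlap, and the log2 fold change was −0.94 ± 0.08 (adjusted p = 4.03e-08 by edgeR), a 1.92-fold fall. It was the only feedback gene that passed as lower in both lines.

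DUSP5 was at 38.3, 39.8 and 34.3 CPM in MDA-MB-231 2D and at 82.4, 76.2 and 77.0 CPM in 3D, a log2 fold change of 1.07 ± 0.09 (adjusted p = 9.11e-08 by edgeR). Its libraries were fully separated in this line, unlike in A549. DUSP4 and DUSP6 were the most abundant of the phosphatases here. DUSP4 was at 527, 539 and 545 CPM in 2D and at 579, 640.1 and 614 CPM in 3D, a log2 fold change of 0.19 ± 0.07 (adjusted p = 0.0313 by edgeR) that was −0.22 on the TPM scale. DUSP6 was at 224, 233 and 235 CPM in 2D and at 265, 284 and 268 CPM in 3D, a log2 fold change of 0.24 ± 0.09 (adjusted p = 0.0329 by edgeR) that was −0.18 on the TPM scale. For both genes the 3D libraries lay above the 2D libraries, but both calls were marginal. They were lost without the low-count filter (adjusted p = 0.13 for DUSP4 and 0.0642 for DUSP6 by edgeR), and also when single libraries were left out. By edgeR the DUSP4 adjusted p was 0.0967, 0.0682 and 0.0597 without 2D replicates 1, 2 and 3, and 0.126 and 0.0759 without 3D replicates 2 and 3. The DUSP6 values in the same order were 0.107, 0.0676, 0.0632, 0.113 and 0.0634.

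SPRY2 was at 92.0, 85.0 and 97.0 CPM in MDA-MB-231 2D and at 124, 118 and 119 CPM in 3D. It was higher in every 3D library, with a log2 fold change of 0.40 ± 0.09 (adjusted p = 8.18e-04 by edgeR) that was −0.02 on the TPM scale, whereas in A549 it fell. SPRY4 was at 46.5, 52.8 and 49.6 CPM in 2D and at 83.2, 84.5 and 80.2 CPM in 3D, a log2 fold change of 0.73 ± 0.10 (adjusted p = 6.54e-06 by edgeR). The SPRY4 change was 0.33 with limma on log2(TPM + 0.1) (adjusted p = 0.111).

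SPRED1 was at 75.1, 67.3 and 78.5 CPM in MDA-MB-231 2D and at 66.2, 62.4 and 60.5 CPM in 3D. SPRED2 was at 69.2, 73.1 and 69.3 CPM in 2D and at 63.3, 65.0 and 63.6 CPM in 3D. All 3D libraries of both genes were below the 2D libraries, yet the log2 fold changes of −0.23 ± 0.15 and −0.14 ± 0.08 did not pass, with adjusted p-values of 0.206 and 0.125 by edgeR. On the TPM scale both were called lower, at −0.60 and −0.57 (adjusted p = 0.00257 and 2.09e-04 by limma). Both passed as lower when MDA-MB-231 libraries were fitted alone (adjusted p = 0.0068 and 0.0356 by edgeR), and with a trend over gene length removed their differences were 0.10 and 0.11.

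ETV4 was at 32.1, 39.4 and 29.9 CPM in MDA-MB-231 2D and at 87.2, 90.2 and 89.8 CPM in 3D. Its log2 fold change of 1.40 ± 0.12 (adjusted p = 1.12e-07 by edgeR) was the largest of the 10 in this line. ETV5 was at 82.1, 84.7 and 85.8 CPM in 2D and at 96.9, 97.2 and 98.5 CPM in 3D. The ETV5 groups did not overlap, with a log2 fold change of 0.21 ± 0.07 (adjusted p = 0.0141 by edgeR) that was −0.20 on the TPM scale and had an adjusted p of 0.0598 without MDA-MB-231 2D replicate 1.

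**Figure D2:**
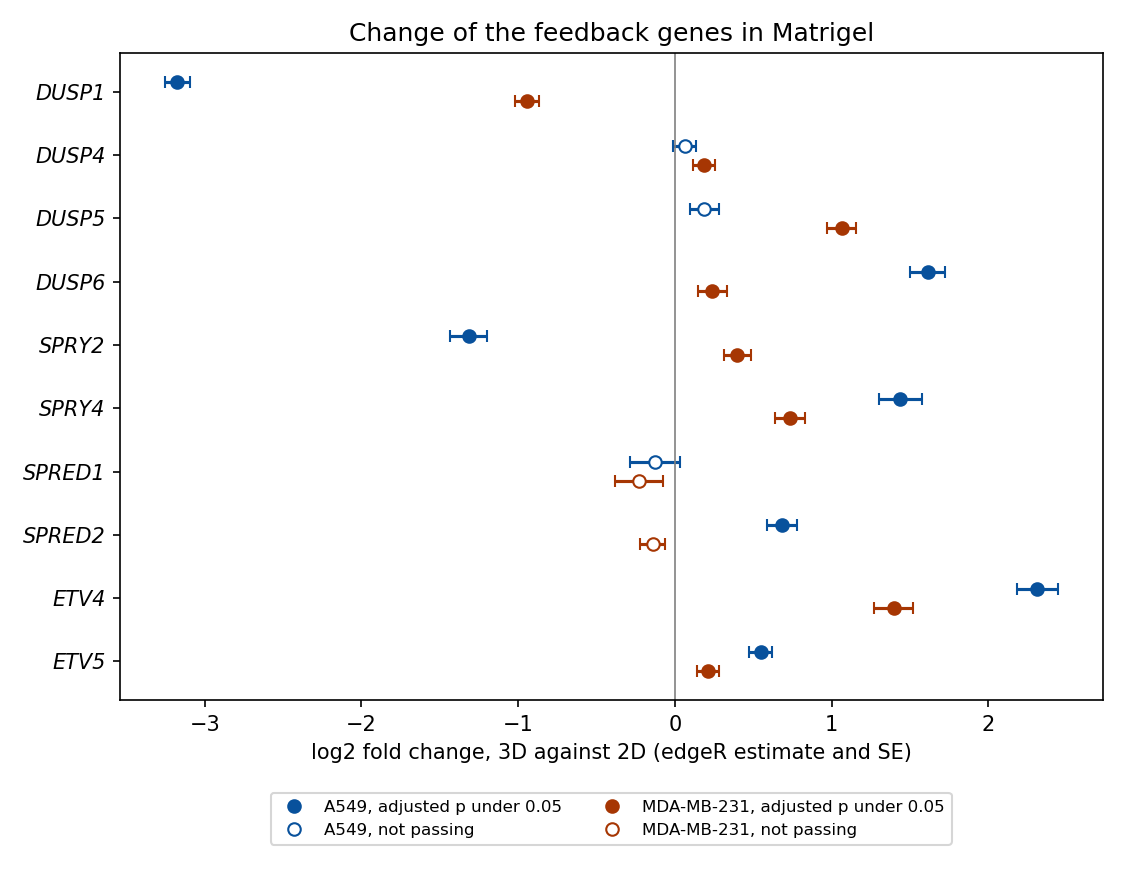
Log2 fold change in 3D against 2D (horizontal axis) with its SE for each feedback gene (vertical axis), in A549 (blue) and MDA-MB-231 (orange), with filled points for an edgeR adjusted p under 0.05. DUSP1 is the lowest in both lines (−3.17 and −0.94), ETV4 is the highest in both (2.31 and 1.40), and SPRY2 lies on opposite sides of 0, although its MDA-MB-231 value was −0.02 on the deposited TPM scale.

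Both lines together, 5 feedback genes passed with the same sign: DUSP1 as lower, and DUSP6, SPRY4, ETV4 and ETV5 as higher, of which DUSP6 in MDA-MB-231 and ETV5 in both lines had the other sign on the TPM scale. SPRY2 was the 1 gene that passed with opposite signs, although its MDA-MB-231 value was −0.02 on the TPM scale. Over all genes tested, 31.5% passed in both lines with the same sign and 14.2% with opposite signs. The size of the change differed between lines for 8 of the 10 genes, in a test of the difference itself (A549 change minus MDA-MB-231 change). Of these, 5 had positive differences and 3 negative ones, where 29.3% and 26.7% of all genes tested did.

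The negative differences were those of DUSP1, at −2.23 ± 0.11 on the log2 scale (adjusted p = 4.36e-10), SPRY2, at −1.72 ± 0.15 (adjusted p = 1.39e-07), and DUSP5, at −0.88 ± 0.13 (adjusted p = 4.33e-05), all by edgeR. The fold decrease of DUSP1 was thus 4.70 times larger in A549, and DUSP5 rose in MDA-MB-231 while its A549 libraries overlapped. The positive differences were those of DUSP6, at 1.38 ± 0.14 (adjusted p = 1.18e-06), ETV4, at 0.92 ± 0.18 (adjusted p = 3.95e-04), and SPRED2, at 0.82 ± 0.12 (adjusted p = 4.19e-05), by edgeR. SPRY4, at 0.70 ± 0.17 (adjusted p = 0.00226), and ETV5, at 0.34 ± 0.10 (adjusted p = 0.0106), were smaller. SPRY4 and ETV5 did not pass with limma on log2(TPM + 1), at 0.21 and 0.19 (adjusted p = 0.316 and 0.211). For DUSP4 and SPRED1 the differences were −0.12 ± 0.10 and 0.10 ± 0.22 (adjusted p = 0.330 and 0.740 by edgeR). The SPRED1 difference changed sign on the TPM scale and was −0.19 without A549 3D replicate 2.

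The lines also differed in their starting levels, most of all in DUSP6 and SPRY4. In 2D, 7 feedback genes were lower in A549 than in MDA-MB-231 and 2 were higher, where 38.8% and 42.8% of all genes tested were lower and higher. DUSP6 was 17.0-fold lower in A549 2D (log2 difference −4.09 ± 0.11, adjusted p = 1.97e-14), SPRY4 10.2-fold lower (−3.34 ± 0.12, adjusted p = 6.54e-13), SPRED2 5.53-fold lower (−2.47 ± 0.09, adjusted p = 5.12e-13) and SPRY2 3.97-fold lower (−1.99 ± 0.09, adjusted p = 1.66e-11), all by edgeR. DUSP4 and ETV5 were lower by 1.05 and 0.77 on the log2 scale. Between the lines, the TPM scale moved the median log2 difference of all genes tested from 0.07 to −0.56 in 2D and from 0.10 to −0.64 in 3D. ETV4 was lower by 0.35 (adjusted p = 0.0198 by edgeR), a call lost without A549 2D replicate 2 (adjusted p = 0.109) or MDA-MB-231 2D replicate 2 (adjusted p = 0.124). DUSP1 was 4.13-fold higher in A549 2D (2.05 ± 0.07, adjusted p = 5.12e-13 by edgeR), and DUSP5 was higher by 0.57, a difference that was −0.22 on the TPM scale. The SPRED1 difference was −0.31 ± 0.15 (adjusted p = 0.0710 by edgeR). It passed on the TPM scale, at −1.03 (adjusted p = 2.19e-05 by limma), and in edgeR without the low-count filter (adjusted p = 0.0240) or with only the groups compared (adjusted p = 1.31e-05).

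In Matrigel, 7 genes were lower in A549 and 1, ETV4, was higher, where 39.2% and 43.9% of all genes tested were. The DUSP6 gap was 6.56-fold and the SPRY4 gap 6.24-fold, while SPRY2 was 13.04-fold lower in A549 (log2 difference −3.70 ± 0.11, adjusted p = 7.64e-14 by edgeR). SPRED2, DUSP4, ETV5 and DUSP5 were lower by 1.64, 1.17, 0.43 and 0.31 on the log2 scale. ETV4 was higher in A549 by 0.57 ± 0.12 (adjusted p = 4.60e-04 by edgeR), but lower by 0.42 on the TPM scale. DUSP1, at 21.2 to 22.7 CPM in A549 3D and 24.1 to 26.2 CPM in MDA-MB-231 3D, differed by −0.19 ± 0.08 (adjusted p = 0.0509 by edgeR). The DUSP1 adjusted p by edgeR was 0.0350, 0.0364 and 0.0405 without A549 3D replicate 1, A549 3D replicate 3 and MDA-MB-231 3D replicate 1, respectively. It was 0.0310 with RLE scaling and 0.0185 with small and ribosomal RNA genes removed, DESeq2 gave 0.0361, and on the TPM scale the difference was −1.07 (adjusted p = 6.27e-08 by limma). SPRED1 differed by −0.21 ± 0.16 (adjusted p = 0.235 by edgeR), by −0.50 without A549 3D replicate 2 (adjusted p = 9.27e-05 by edgeR) and by −1.03 on the TPM scale (adjusted p = 1.98e-05 by limma).

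Levels of different genes can be compared on the deposited TPM scale, which is divided by transcript length. In A549 2D the order was led by DUSP1, at 138 ± 5.19 TPM (SD, n = 3), then DUSP4, at 60.9 ± 3.09, and DUSP5, at 30.4 ± 1.31 TPM. ETV4 and ETV5 followed at 17.2 ± 2.45 and 16.2 ± 1.06 TPM with overlapping libraries, and SPRY4 was last at 1.31 ± 0.13 TPM. In A549 3D, ETV4 (55.7 ± 12.2 TPM) and DUSP4 (43.7 ± 4.81 TPM) led with overlapping libraries. DUSP1 had rank 6 there, at 10.2 ± 0.99 TPM, overlapping with DUSP6 at 11.4 ± 1.88 TPM, and SPRED2 and SPRY2 overlapped at 4.19 ± 0.71 and 4.01 ± 0.53 TPM.

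MDA-MB-231 kept the same 3 genes at the top in both cultures. DUSP4, DUSP6 and SPRY2 stood at 219 ± 6.06, 160.0 ± 5.78 and 97.1 ± 6.997 TPM in 2D and at 187 ± 8.13, 141 ± 5.38 and 95.7 ± 3.81 TPM in 3D, with no overlap between neighbours in that order. DUSP1 followed in 2D at 58.2 ± 3.54 TPM and had rank 9 in 3D, at 22.6 ± 1.30 TPM, while ETV4 had rank 7 in 2D, at 38.4 ± 5.61 TPM, and rank 4 in 3D, at 73.6 ± 1.04 TPM. In 2D the levels of SPRED2, ETV4 and DUSP5 overlapped between neighbours, as did those of SPRY4 and SPRED1, both at 23.1 TPM. The 10 genes summed to 298 ± 10.1 TPM in A549 2D, 178 ± 19.8 TPM in A549 3D, 741 ± 19.7 TPM in MDA-MB-231 2D and 687 ± 14.2 TPM in MDA-MB-231 3D, so the A549 sums were lower than every MDA-MB-231 sum. These sums carry the shift of the TPM scale, where the median 3D against 2D change of all genes was −0.38 in A549 and −0.25 in MDA-MB-231. For A549 against MDA-MB-231 that median was −0.56 in 2D and −0.64 in 3D. In A549, DUSP1 alone went from 138 to 10.2 TPM.

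**Figure D3:**
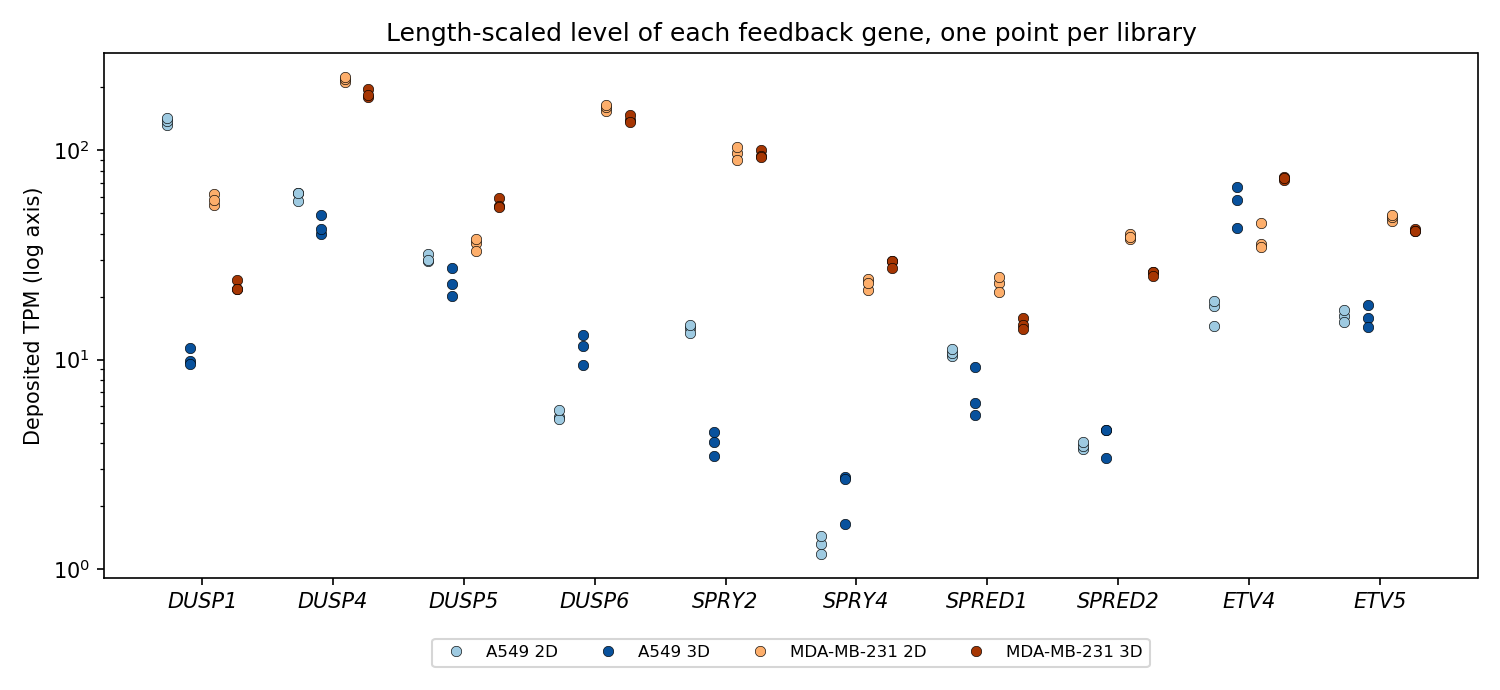
Deposited TPM of each feedback gene (horizontal axis) on a logarithmic vertical axis, with one point per library and colours for line and culture. DUSP6, SPRY2, SPRY4 and SPRED2 lie apart between the lines, from 5.43 TPM on average in A549 2D to 160.0 TPM in MDA-MB-231 2D for DUSP6.

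Across the 12 libraries, after the mean of each line was subtracted, some feedback genes followed one another. Pearson's r of log2 CPM was 0.98 for SPRY4 with ETV4, 0.97 for ETV4 with ETV5 and 0.88 for DUSP6 with ETV4. It was −0.97 for DUSP1 with DUSP6 and −0.95 for SPRY2 with SPRED2. These values are descriptions only: the points share libraries, depth and the culture difference of each line. By the same measure the genes most like DUSP6, among the 9670 genes whose average log2 CPM reached 3, were ARMCX5 (r = 0.997), PLD1 (0.994), IGFBP3 (0.992), TSC22D1 (0.992) and AGR2 (0.991).

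The other genes of the pathway did not follow one direction. In edgeR, 34.1% of all genes tested rose and 31.5% fell in A549, and 33.4% and 34.2% in MDA-MB-231. Their counts in edgeR are read against these shares. On the TPM scale, 10916 and 10023 of all genes were called in A549 and MDA-MB-231, of which 21.0% and 25.3% were higher. Among 10 other members of the same families, 6 rose and 1 fell in A549, and 5 rose and 1 fell in MDA-MB-231, with 2 and 3 and then 2 and 2 on the TPM scale. In A549 the Sprouty gene SPRY1 rose from 1.20 ± 0.196 to 4.997 ± 0.197 CPM (SD, n = 3 in each group), a log2 fold change of 2.02, and DUSP10, which acts on p38 and JNK, by 1.54. DUSP7, an ERK phosphatase, fell by 1.02, and DUSP16 rose by 0.42 but was −0.13 on the TPM scale. In MDA-MB-231 the passing genes with the smallest p were DUSP10 (0.56), ETV1 (0.53), DUSP8 (1.04) and DUSP2 (1.20), all of which rose on the log2 scale by the values given. Of these, DUSP8 and DUSP2 had few reads. DUSP8 had 24, 28 and 29 counts in 2D and 25, 44 and 50 in 3D. DUSP2 had 9, 9 and 8 counts in 2D and 8, 17 and 18 in 3D. SPRY1 was at 24.8 ± 1.45 and 20.9 ± 1.76 CPM in MDA-MB-231 2D and 3D.

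The 18 genes of the RAS-RAF-MEK-ERK cascade went both ways. In A549, 4 rose and 7 fell (0 and 12 on the TPM scale), and in MDA-MB-231, 7 rose and 8 fell (4 and 10 on the TPM scale). NRAS fell by 0.74 in A549, and HRAS rose by 1.29 in MDA-MB-231. BRAF rose by 0.61 in A549 and fell by 0.49 in MDA-MB-231, and the difference was 1.10 ± 0.13 (adjusted p = 4.15e-06 by edgeR). MAP2K2, which encodes MEK2, rose in both lines, by 0.81 and 1.10, and ARAF rose by 1.24 in MDA-MB-231. PTPN11, the phosphatase SHP2, fell by 0.71 in A549. MAPK3, which encodes ERK1, rose by 0.82 in MDA-MB-231 and had a log2 fold change of 0.18 in A549 (adjusted p = 0.124 by edgeR), which was −0.40 on the TPM scale.

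Of 10 other negative regulators of RAS and receptor signalling, 2 rose and 3 fell in A549, and 3 rose and 4 fell in MDA-MB-231 (1 and 8, and 1 and 6, on the TPM scale). NF1, which encodes neurofibromin, rose by 1.09 on the log2 scale in A549 and DAB2IP by 0.69, while LRIG1 fell by 0.63 and RASA1 by 0.57. In MDA-MB-231, LRIG1 rose by 1.20 and PEBP1 by 0.52, and the RAS GTPase activators RASA2 and RASA1 fell by 1.23 and 1.03. Of 13 ERK effectors and genes of the CIC repressor complex, 4 rose and 3 fell in A549 and 8 rose and 4 fell in MDA-MB-231 (1 and 8, and 3 and 5, on the TPM scale). CIC, a repressor of ETV4, ETV5 and DUSP6 that ERK signalling inactivates, was at 43.6 ± 4.38 and 41.9 ± 14.2 CPM in A549 2D and 3D (log2 fold change −0.01, adjusted p = 0.957 by edgeR, with values of 0.01 under RLE and upper-quartile scaling) and rose by 0.79 in MDA-MB-231. The CIC partner ATXN1 rose by 0.96 in A549 and ATXN1L fell by 0.75, and the transcription factor genes SRF and ELK3 fell by 1.45 and 0.87. In MDA-MB-231 the kinase genes RPS6KA2 and MKNK2 rose by 1.97 and 0.97, ELK1 rose by 0.95, and RPS6KA3 fell by 1.10.

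The 13 other transcripts used as ERK readouts were mostly lower in A549 and mostly higher in MDA-MB-231 in edgeR. In A549, 4 rose and 9 fell, where 34.1% and 31.5% of all genes did, with a median log2 fold change of −0.88. In MDA-MB-231, 10 rose and 1 fell, where 33.4% and 34.2% of all genes did, with a median of 0.47. On the TPM scale the counts were 3 and 9 in A549 and 3 and 3 in MDA-MB-231. There, 21.0% and 25.3% of all called genes were higher in A549 and MDA-MB-231. The difference between lines passed for 12 of the 13, as 3 positive and 9 negative, where 29.3% and 26.7% of all genes passed in those directions. LIF, a cytokine gene, fell from 98.7 ± 3.56 to 12.5 ± 3.62 CPM in A549 (log2 fold change −2.89), and was at 54.5 ± 3.32 and 50.7 ± 0.91 CPM in MDA-MB-231. The MYC transcript fell by 1.17 in A549 and rose by 0.52 in MDA-MB-231. FOS and EMP1 rose by 3.92 and 1.66 in A549, EMP1 rose by 0.70 and IER3 by 0.63 in MDA-MB-231, and EGR1 rose by 1.59 in MDA-MB-231. Of 12 genes of the p38 and JNK cascades, on which DUSP1 also acts, 2 rose and 5 fell in A549 and 7 rose and 4 fell in MDA-MB-231 (0 and 10, and 1 and 4, on the TPM scale). MAPK8 and MAPK9, the JNK genes, fell in both lines, by 1.05 and 0.48 in A549 and by 0.68 and 0.60 in MDA-MB-231. MAPKAPK2, a p38 target, fell by 0.48 in A549, where MAP2K6 rose by 0.71 (−0.14 on the TPM scale), and MAPKAPK2 and MAPKAPK3 rose by 0.57 and 0.95 in MDA-MB-231.

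**Figure D4:**
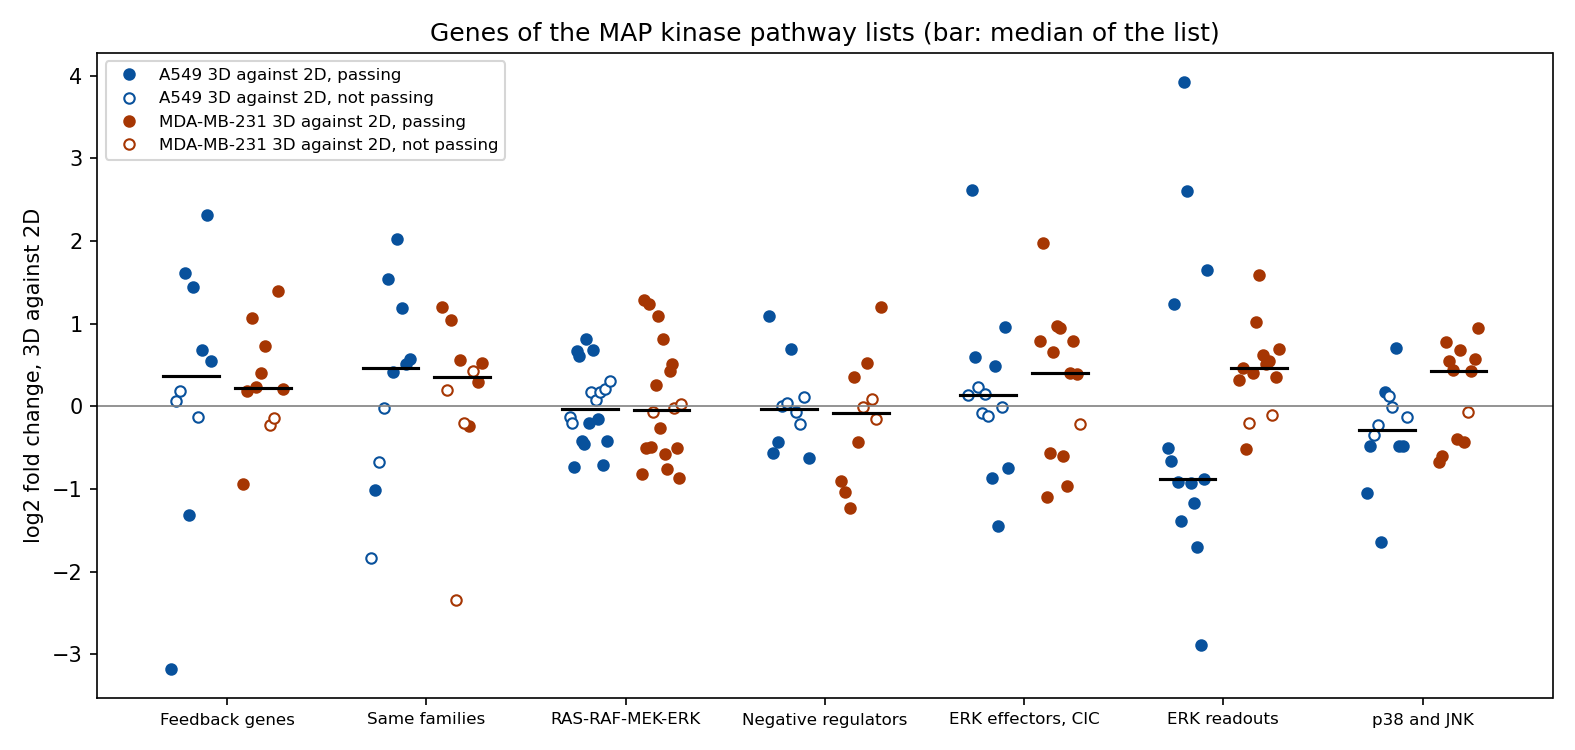
Log2 fold change in 3D against 2D (vertical axis) of each gene in the feedback list and 6 other lists of the pathway (horizontal axis), in A549 (blue) and MDA-MB-231 (orange), filled where the edgeR adjusted p was under 0.05. Black bars are list medians. The ERK readouts show the widest gap between medians, −0.88 in A549 and 0.47 in MDA-MB-231. On the deposited TPM scale the MDA-MB-231 genes called were 3 higher and 3 lower, where 25.3% of all called genes were higher.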

How the data were processed

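RNA was measured in 12 libraries, 3 of each line and culture. Per the labels, total RNA was extracted with TRIZOL, ribosomal RNA was depleted and stranded libraries were made. The deposited tables hold RSEM gene results on hg19, per the submitters' processing notes. The aligner, all versions, the annotation and whether counting used strand: not given in the sources used here. Reads of SPRY4 and its antisense transcripts SPRY4-AS1 and SPRY4-IT1, or of DUSP5 and its pseudogene DUSP5P1, may therefore be shared. The authors' expected counts are estimates that split shared reads between genes. The deposited TPM values are divided by effective transcript length and sum to a constant per library. The deposited FPKM values were not used. The deposited gene lengths and effective lengths (other values, in bases) gave fragment lengths over genes of at least 2000 bases. There were 0 columns of other series.

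Expected counts were rounded to whole numbers, filtered with filterByExpr and scaled with TMM (factors 0.809 to 1.129). One edgeR (4.0.16, R 4.3.3) quasi-likelihood fit with 4 group means covered all 12 libraries, with two-sided tests and Benjamini-Hochberg adjustment over 15304 genes at a threshold of 0.05. No pair of libraries of a group agreed within sampling noise (chi-square per degree of freedom of 2.60 or more). The fit did not pair libraries by replicate number, and whether the numbers pair the libraries was not established. The script was tested on simulated counts. The 10 genes, the pathway lists and the marker lists were chosen with earlier results of these data known. Named genes are all 10 feedback genes, from each other list up to 4 passing genes with the smallest p in a line, and BRAF, MAPK3 and CIC. A few further genes of the rule and lists are not reported here. The 5 genes most like DUSP6 were ranked by Pearson's r. SPRY1 and LIF in MDA-MB-231 fall outside the rule and were given after their values were seen.

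Alternatives were scaling by RLE or the upper quartile, a DESeq2 (1.42.0) fit, testing without a low-count filter or with CPM of 1 or more in 3 libraries, limma (3.58.1) on log2(TPM + 1) and log2(TPM + 0.1), only the groups compared, voom with group weights, a replicate block, removal of small and ribosomal RNA genes, removal of a length trend, a test against a log2 fold change of 1, and leaving out each library. Rescaling TPM by the median ratio was added after seeing the data.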

Additional observations from a re-analysis of the deposited data

Results flagged for a closer look

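For 8 of the 10 feedback genes, the log2 fold change in 3D against 2D differed between A549 and MDA-MB-231 in edgeR's test of the difference itself. The A549 change was lower than the MDA-MB-231 change for DUSP1 (−2.23), SPRY2 (−1.72) and DUSP5 (−0.88). It was higher for DUSP6 (1.38), ETV4 (0.92), SPRED2 (0.82), SPRY4 (0.70) and ETV5 (0.34). In the same test 29.3% and 26.7% of all genes were called as higher and lower.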

How the results depend on the processing

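In A549, the falls of DUSP1 and SPRY2 and the rises of DUSP6, SPRY4 and ETV4 kept their direction and their call under every alternative run, as did the ETV4 rise in MDA-MB-231. The other MDA-MB-231 changes lost their call when tested against a log2 fold change of 1. In that test, 3 genes were higher in A549, and 1 higher and 0 lower in MDA-MB-231 (1 in all). The change differed between lines for 3 (1 higher), and the level for 5 in 2D (1 higher, 4 lower) and 5 in 3D (0 higher). Of the genes in the other pathway lists, 11 passed in either line in that test, against 72 in the edgeR test described above. The share of all genes passing in either line was not computed, so these counts carry no result about the pathway. Over all genes, 2472 passed in A549 (67.8% of them higher) and 1741 in MDA-MB-231 (43.6%). The change differed between lines for 2145 (63.5% higher), and the level for 5895 in 2D (51.3%) and 6736 in 3D (56.1%).

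With limma on log2(TPM + 1) and log2(TPM + 0.1), respectively, 3 and 3 genes were higher and 5 and 5 lower in A549, 3 and 2 higher and 4 and 4 lower in MDA-MB-231, and 3 and 3 had a positive difference between lines. Between lines, 1 and 1 were higher in A549 in 2D and 0 and 0 in 3D. Of all called genes, 21.0% and 21.4% were higher in A549 and 25.3% and 24.4% in MDA-MB-231, and 46.4% and 45.2% had a positive difference. Of all genes called between lines, 25.1% and 25.2% were higher in A549 in 2D, and 27.0% and 27.2% in 3D. Log2 differences that changed sign were those of DUSP4 (−0.47 and −0.48), DUSP5 (−0.37 and −0.38) and ETV5 (−0.0103 and −0.0112) in A549. In MDA-MB-231 they were those of DUSP4 (−0.22 and −0.22), DUSP6 (−0.18 and −0.18), SPRY2 (−0.0194 and −0.0196) and ETV5 (−0.20 and −0.20). The SPRED1 difference between lines was −0.00101 and −0.0387, the DUSP5 difference in 2D −0.22 and −0.23, and the ETV4 difference in 3D −0.42 and −0.43. After TPM were rescaled by the median ratio, 5 genes rose and 2 fell in A549 and 6 and 1 in MDA-MB-231. Over all genes, 9741 and 9901 were then called in A549 and MDA-MB-231, 53% and 50.3% of them higher. Whether the shift in the median of all genes accounts for the unscaled counts was not tested.

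Without the low-count filter, 5 genes passed in MDA-MB-231, 4 of them higher, and 10051 of all genes passed there, 48.4% of them higher. With only the groups compared, or with voom, 3 were lower there. In these 2 settings 10945 and 11306 of all genes passed in MDA-MB-231, 50% and 49.8% of them higher. The SPRED1 difference between lines was −0.0123 with voom. With the length trend removed, SPRED1 and SPRED2 stood at 0.10 and 0.11 in MDA-MB-231 and the SPRED1 difference at −0.21. Leaving out 1 library gave 5 to 8 passing feedback genes in MDA-MB-231, 4 to 7 of them higher. Of all genes, 9514 to 9878 passed there without an MDA-MB-231 library, 49.3% to 49.7% of them higher. The SPRED1 change was −0.42 to 0.0818 in A549, and the SPRED1 difference between lines −0.19 to 0.31. The causes of these changes were not tested.

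Same-numbered libraries correlated at 0.0003, 0.17 and 0.17 in A549 and −0.03, 0.08 and −0.31 in MDA-MB-231, and not every library correlated best with its own number. With the replicate block, 7 genes passed in A549 and 7 in MDA-MB-231, where DUSP4 did not (adjusted p = 0.0759 by edgeR), and 8 differed between lines. Over all genes, 9656 passed in A549 and 10097 in MDA-MB-231 with this block, and 8332 differed between lines. SPRED1 passed between lines in 2D (adjusted p = 0.0465). Depth limits SPRY4 most, with 49 counts in its shallowest library.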
